A study of Homo sapiens with 73 samples.

Results

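The ABC transporters and the organic ion carriers of the SLC22 and SLCO families were followed through an evolution experiment in CHLA-9, a human Ewing sarcoma cell line with an EWSR1-FLI1 fusion. The genes were taken by symbol alone, as ABC subfamilies A to G, SLC22A or SLCO, which gave 79 of the 36233 genes in the deposited table: 46 ABC genes, 22 SLC22 genes and 11 SLCO genes. Total RNA of 73 libraries was sequenced. The 7 treated lineages (R1 to R7, 49 libraries) received VDC (vincristine, doxorubicin and cyclophosphamide) at odd time points and EC (etoposide and cyclophosphamide) at even ones, over 10 time points or 5 cycles. Cells were exposed for 5 days at a dose with 70% effect each time, and RNA was taken after drug-free regrowth. The 3 DMSO lineages (R8 to R10, 23 libraries) received the solvent on the same schedule, and the untreated parental line gave 1 library. All lineages started from that line, so p-values over lineages measure the spread between cultures of 1 cell line. Time point 2 was sequenced in DMSO lineages only and time point 3 in treated lineages only.

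ABC transporters use ATP to move substrates across membranes. P-glycoprotein (ABCB1), MRP1 (ABCC1) and BCRP (ABCG2) are known for expelling anticancer drugs, among them vincristine, doxorubicin and etoposide for ABCB1, and other members move lipids, haem precursors, peptides or fatty acids. SLC22 carriers take up or release organic cations, anions and carnitine, and SLCO genes encode organic anion transporting polypeptides, which carry hormones, prostaglandins, bile salts and many drugs. Subfamilies E and F have no membrane domain and act in translation.

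Values are quantile-normalized counts, whose library depth is unknown. Each library has a lowest value, shared by 13214 to 16107 genes, called its floor here, which lay between 0 and 0.0513. Expression was compared as log2(value + 1), and 14565 genes with a mean of at least 10 over all libraries were tested with limma. Among the 79 transporter genes 41 reached that mean (29 ABC, 8 SLC22 and 4 SLCO) and 38 did not. In bulk RNA, fewer cells of a type and less RNA per cell cannot be told apart. The Ewing sarcoma markers CCND1, PRKCB, NR0B1, STEAP1, FLI1 and EWSR1 had medians from 763 (STEAP1) to 41935 (CCND1) in treated libraries and from 804 to 44969 in DMSO libraries. NKX2-2, another Ewing sarcoma marker, was far lower, with medians of 25.7 in treated and 28.2 in DMSO libraries. CD99 never passed 1.66 in treated libraries or 2.31 in DMSO libraries, and SLC25A6, another gene of the pseudoautosomal region, never passed 0.0513.

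Some libraries stood apart. The last libraries of R1 (time point 9) and of R2 (time point 10), called the late R1 and R2 libraries here, differed from the rest of the treated arm, and R9 at time points 8 and 9 with R10 at time points 9 and 10 differed from the rest of the DMSO arm. Among early treated libraries, those of R1 lay outside the range of the others of their time point for 28 of 41 transporter genes at time point 1 (66.5% of all tested genes), 22 at time point 3 (64.8%) and 27 at time point 4 (57.5%). These shares are close to those of all genes.

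Promoter windows from RefSeq (GRCh38.p14) cover 250 bases before to 50 after a gene's start, and 55 of the 79 genes have one. They are shown for ABCB1, the pump that left its floor in late libraries, and for SLC22A16 and ABCA3, which were both high at the first time points and low at time point 4. ABCB1 has 2 windows, chr7:87713246-87713545 and chr7:87600835-87601134, both on the minus strand, the second inside the gene's span. The windows of SLC22A16 (chr6:110476564-110476863) and ABCA3 (chr16:2340679-2340978) are on the minus strand too. Capitals mark matches on either strand to the letters GGGCGG (the GC box), CCAAT (the CCAAT box), TATAAA (the TATA box), CACGTG (the E-box) and GGAAGGAA (a GGAA repeat).
ABCB1, upstream window: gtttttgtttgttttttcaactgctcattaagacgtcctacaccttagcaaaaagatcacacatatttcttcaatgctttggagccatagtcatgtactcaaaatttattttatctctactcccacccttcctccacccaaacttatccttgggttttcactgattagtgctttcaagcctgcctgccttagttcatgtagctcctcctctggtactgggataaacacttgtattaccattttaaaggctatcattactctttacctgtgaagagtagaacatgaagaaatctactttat
ABCB1, downstream window: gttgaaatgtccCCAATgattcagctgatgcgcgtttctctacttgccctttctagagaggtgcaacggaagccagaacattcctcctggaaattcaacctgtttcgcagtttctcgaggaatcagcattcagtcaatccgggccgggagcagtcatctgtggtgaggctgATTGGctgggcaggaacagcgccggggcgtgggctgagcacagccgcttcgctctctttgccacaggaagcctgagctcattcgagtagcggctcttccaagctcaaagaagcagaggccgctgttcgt
SLC22A16: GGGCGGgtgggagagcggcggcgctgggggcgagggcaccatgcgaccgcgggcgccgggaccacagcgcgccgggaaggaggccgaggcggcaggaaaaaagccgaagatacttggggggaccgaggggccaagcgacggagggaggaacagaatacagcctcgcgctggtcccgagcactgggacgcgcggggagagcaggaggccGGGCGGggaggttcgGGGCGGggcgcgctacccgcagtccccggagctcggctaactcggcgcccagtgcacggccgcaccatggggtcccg
ABCA3: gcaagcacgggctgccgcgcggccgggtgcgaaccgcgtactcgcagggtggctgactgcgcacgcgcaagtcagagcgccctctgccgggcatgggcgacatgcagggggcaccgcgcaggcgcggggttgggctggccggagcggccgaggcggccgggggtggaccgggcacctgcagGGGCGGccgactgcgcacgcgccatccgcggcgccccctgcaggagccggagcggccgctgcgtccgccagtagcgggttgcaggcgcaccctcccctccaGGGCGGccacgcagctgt
The upstream ABCB1 window held none of these letters and was 37.7% G and C, and the downstream one, 55.3% G and C, held CCAAT once on each strand, a motif found in 34.6% of all 35116 windows. The SLC22A16 window held 3 matches to GGGCGG and the ABCA3 window 2, against 15786 of all 35116 windows with at least 1. TATAAA is held by 11.5% of all windows, CACGTG by 7.26% and GGAAGGAA by 3.67%, and none of the printed windows held any of them. A match describes letters only, and the deposited values do not tell which start was used.

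Levels of the transporter genes differed widely. Per kb of exonic length, the level was highest for SLCO5A1, an organic anion transporting polypeptide of little known function, at a mean of 1268 per kb over all libraries (chr8:69667047-69835064, GRCh38). ABCF1, a translation factor, followed with 416 per kb, then the drug efflux pump ABCC1 with 362, ABCE1, which recycles ribosomes, with 329, and the mitochondrial half-transporter ABCB10 with 204. A mean of 1000 or more was found for 8 genes, and 29 lay at 10 or above in every library. At the other end 28 genes never reached 10 in any library and 26 had a mean under 1. The renal and hepatic organic anion transporters SLC22A6, SLC22A7 and SLC22A8 and the liver uptake carriers SLCO1B1 and SLCO1B3 never reached 10. SLCO1B1 and SLC22A3 lay at the floor in all 73 libraries.

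The other genes that never reached 10 were ABCB5, the bile salt exporter ABCB11, ABCC8 and ABCC9, which are subunits of ATP-sensitive potassium channels, ABCC11, ABCC12, the pseudogene ABCC13, ABCD2, ABCG2, ABCG5, SLC22A2, SLC22A9, SLC22A10, SLC22A11, SLC22A12, SLC22A24, SLC22A25, SLCO1A2, SLCO1C1, SLCO2B1, SLCO4C1 and SLCO6A1. ABCG2, the breast cancer resistance protein, lay at the floor in 60 of 73 libraries and its highest value was 1.88, in R6 at time point 4. Its highest DMSO value was 1.41, and the parental library was at its floor. No trend can be read for a gene at such values.

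**Figure D1:**
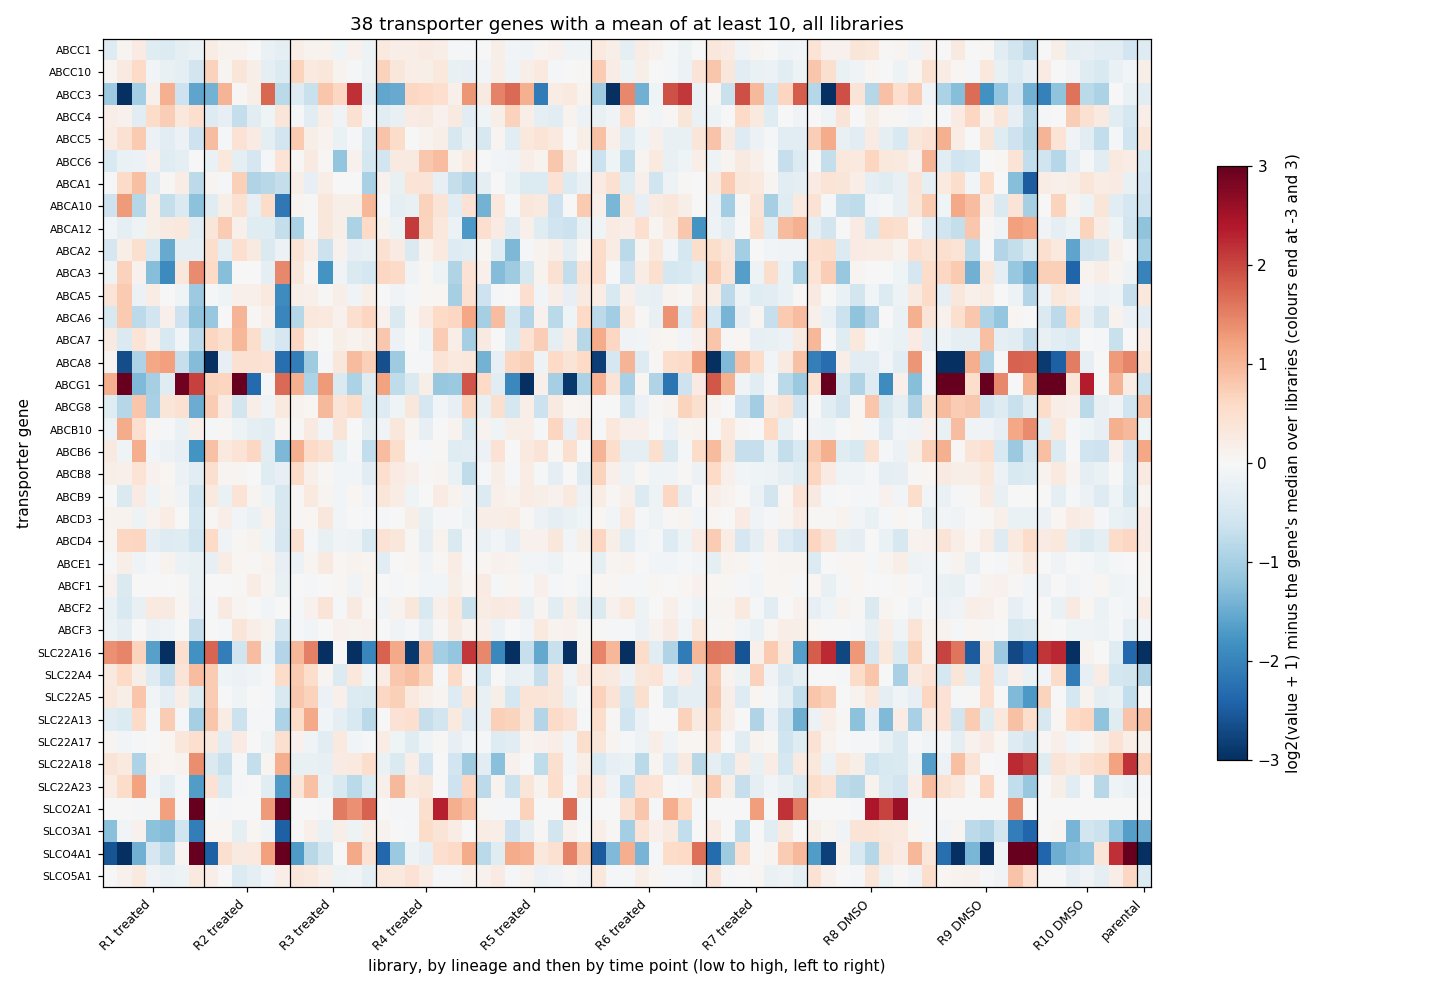
Expression of 38 of the 41 transporter genes with a mean of at least 10 (rows, ordered by role) in all libraries (columns, treated lineages left, DMSO lineages next, the parental library last), as log2(value + 1) minus each gene's median. SLCO4A1 and SLCO2A1 are darkest red at the right end of R1 and R2, SLCO4A1 also at the right end of R9 and R10, and SLC22A16 is red early and blue in many later libraries of both arms.

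ABCB1, the multidrug efflux pump P-glycoprotein (chr7:87503633-87713323, minus strand), was at or near its floor in early libraries of both arms and above it in late ones, and its highest value by far was in a single treated lineage. It lay at the floor in 36 of 73 libraries, the parental library among them (0.0248). At time points 1 to 3, treated libraries lay between 0.00529 and 1.09 with a median of 0.0163 (n = 12, 11 at the floor), and DMSO libraries between 0.0112 and 0.0287 with a median of 0.0169 (n = 6, all at the floor). At time points 4 to 7 the treated median was 0.439 with a highest value of 12.7 (n = 25, 10 at the floor), and the DMSO median 0.0309 with a highest value of 1.41 (n = 9, 6 at the floor).

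At time points 8 to 10 the treated libraries had a median of 14.4 and lay between 0.0117 and 268 (n = 12, 1 at the floor), and the DMSO libraries had a median of 4.90 and lay between 0.0154 and 18.0 (n = 8, 1 at the floor). Of these, 6 treated libraries and 1 DMSO library reached 10. At time point 10 the treated values were 29.1 in R2, 268 in R5 and 25.0 in R6, and the DMSO values 5.47 in R8 and 4.32 in R10. All 3 treated libraries there were above both DMSO ones. At time point 9 the treated values were 32.0 in R1, 1.35 in R4 and 23.3 in R5, against 5.73 in R8, 18.0 in R9 and 1.04 in R10 with DMSO, and the arms overlapped.

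With a mean of 6.91, ABCB1 was under the minimum of 10, so it was tested only in a fit with a minimum mean of 1 (20174 genes). There its slope, the change in log2(value + 1) per time point, was 0.45 (SE 0.083, adjusted p = 0.00300) in treated lineages, positive in 7 of 7, in a comparison that called 35.6% of genes, 14.9% as rising and 20.8% as falling. In DMSO lineages, where 9.75% of genes were called, 5.19% as rising, the slope was 0.32 (SE 0.13, adjusted p = 0.113), positive in 3 of 3. The difference of the slopes was 0.12 (SE 0.15, adjusted p = 0.846), and the difference between arms over all time points 0.77 (SE 0.35, adjusted p = 0.400). At time point 10 the difference between treated and DMSO libraries was 3.34 (SE 0.97, adjusted p = 0.171), where 5 of 20174 genes (0.0248%) were called. Outside time points 8 to 10 its mean was 0.799, so it passed that minimum through the late libraries. With no filter on low values the treated slope had an adjusted p of 0.0144 and the DMSO slope one of 0.242 (limma). Without R5, whose slope enters the estimate of spread shared by all lineages, the DMSO slope passed as well (adjusted p = 0.0293). No test between the arms passed.

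The value of 268 in R5 at time point 10 followed 23.3 at time point 9, 4.74 at time point 8 and 6.23 at time point 7 in the same lineage. The next highest library of all, R1 at time point 9, had 32.0. ABCB4, a phosphatidylcholine transporter of the bile canaliculus that is the neighbour of ABCB1 on chromosome 7, had 47.9 in the same R5 library, against at most 13.2 in the other libraries. Among all 36233 genes, ABCB1 and ABCB4 had the largest and second largest lead of that library over all others, 3.03 and 1.78 on the log2(value + 1) scale. Without that library the treated slope of ABCB1 was 0.40 (adjusted p = 0.00132, limma). ABCB4 had a mean of 4.64 and its slope was 0.015 (SE 0.050, adjusted p = 0.841) in treated lineages, positive in 2 of 7, and -0.062 (SE 0.077, adjusted p = 0.612) in DMSO lineages, positive in 1 of 3. Marker sums of this library lay within the range of other R5 libraries for epithelial, fibroblast and muscle, hepatocyte and kidney lists, while the Ewing sarcoma sum was 59179.8 against 60328 to 75085, and the blood sum 52.1 against 24.1 to 49.97. Their part in the result was not tested.

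The other 8 protein-coding genes within 500 kb of ABCB1 lay within the range of the other libraries in R5 at time point 10. Beyond ABCB4, CROT, a peroxisomal carnitine acyltransferase, had 149 against 79.0 to 302 elsewhere. Beyond ABCB1, RUNDC3B, whose span overlaps ABCB1 on the opposite strand, had 35.3 against 4.74 to 44.6. Among the libraries of R5 alone, RUNDC3B was above the others, which lay between 4.74 and 24.8, and SLC25A40, a mitochondrial carrier, was below them all, the others lying between 344 and 460.3. Whether counting used strand is not given in the sources used here, and without it reads of these overlapping genes cannot be told apart.

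**Figure D2:**
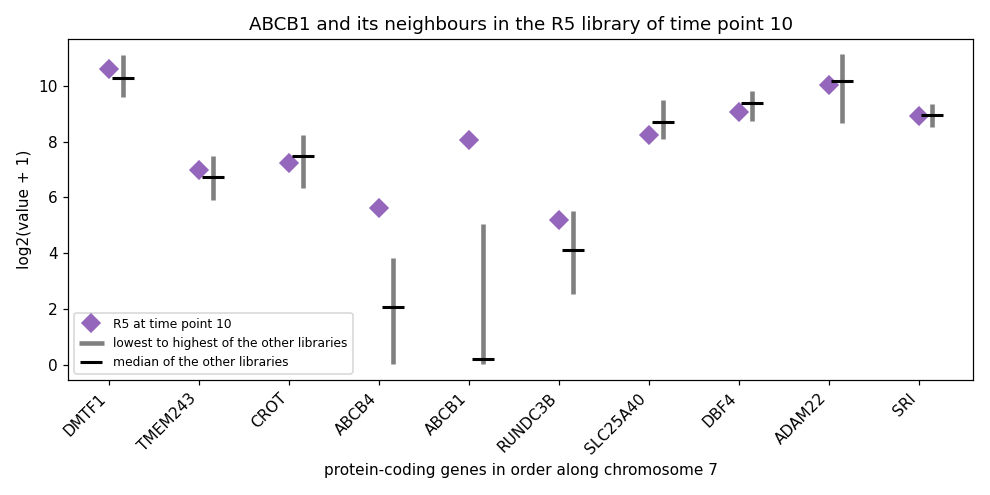
Level, as log2(value + 1), of ABCB1 and the protein-coding genes around it in chromosomal order: the diamond is R5 at time point 10, the grey bar the range and the black dash the median of the other 72 libraries. The diamonds of ABCB4 and ABCB1 lie above the bars, and the others lie on them.

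ABCC1 (MRP1, chr16:15949577-16143074), an exporter of anthracyclines, vinca alkaloids and glutathione conjugates, was the most abundant drug pump and fell slowly in both arms. It lay between 2073 and 3490.2 with a median of 2740.0 in treated libraries (n = 49) and between 1591 and 3640.5 with a median of 2777 in DMSO libraries (n = 23), against 2105 in the parental library. Its slope was -0.039 (SE 0.010, adjusted p = 0.0125) in treated lineages, falling in 7 of 7, and -0.070 (SE 0.016, adjusted p = 0.0230) in DMSO lineages, falling in 3 of 3. Over the 9 steps this amounts to a fitted 0.782-fold level in treated and 0.647-fold in DMSO lineages. The difference between arms over all time points was 0.10 (SE 0.087, adjusted p = 0.616). Without R8 it was 0.25 (adjusted p = 0.0473, limma), higher in treated lineages, so this comparison depends on 1 DMSO lineage.

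**Figure D3:**
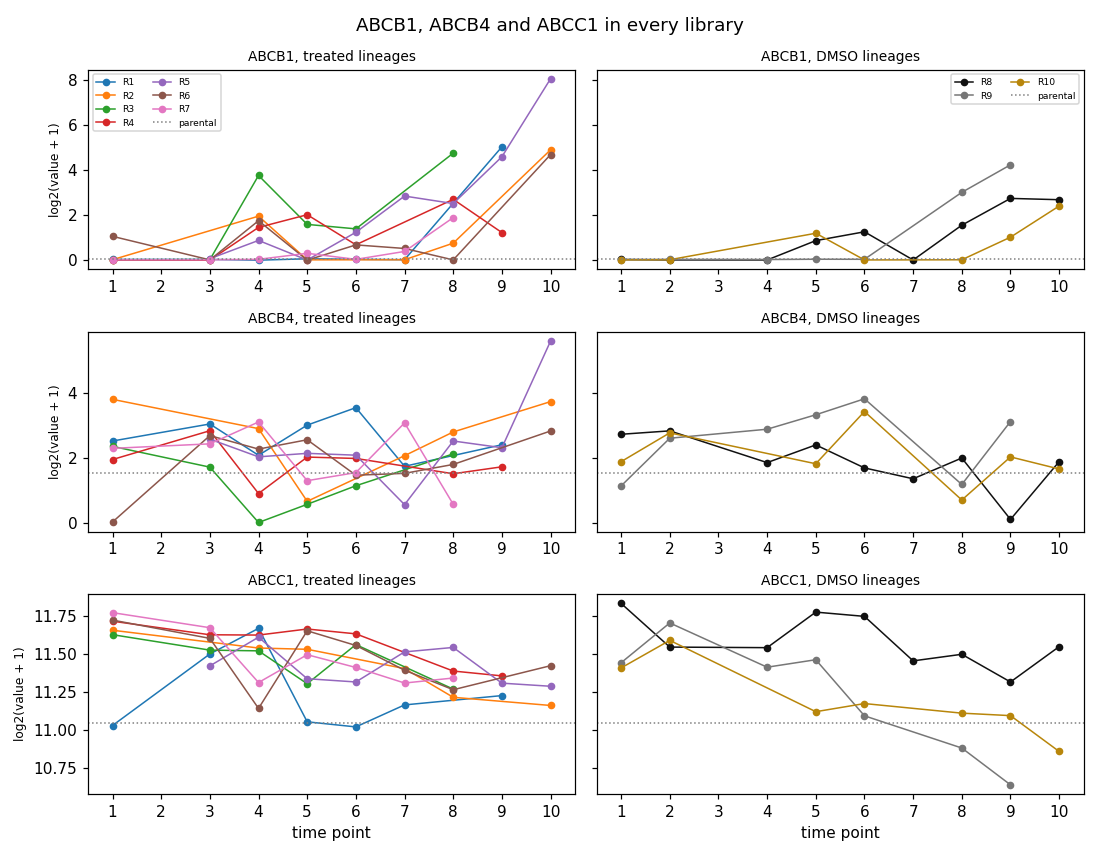
ABCB1, ABCB4 and ABCC1 as log2(value + 1) by time point in treated lineages (left) and DMSO lineages (right), with 1 line per lineage and a dotted line at the parental library. ABCB1 leaves its floor late in both arms and peaks in R5 at time point 10 together with ABCB4, while ABCC1 drifts down on both sides.

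Across the transporter genes, change over time was common in treated lineages and more often downward. Of the 41 tested genes 16 had a treated slope past the threshold, 3 rising and 13 falling, in a comparison that called 39.1% of all 14565 genes, 16.3% rising and 22.8% falling. Among the 16, SLCO2A1 was in the test only through 2 late libraries in which it was high. The share of transporter genes called, 39.0%, is close to the background, and their median slope was -0.030 against -0.0076 over all genes. In DMSO lineages 9 genes passed, 3 rising and 6 falling, where 12.3% of all genes passed, 6.11% rising and 6.14% falling. Of the 41 genes 7 passed in both arms, each with the same sign, 9 in treated lineages alone and 2 in DMSO lineages alone. Of all 14565 genes 1317 (9.04%) passed in both arms, 1314 of them with the same sign, 4376 in treated lineages alone and 468 (3.21%) in DMSO lineages alone. No slope differed between arms past the threshold among 41 transporter genes or among all 14565 (0%, limma). At an unadjusted p under 0.05 it was 5 transporter genes and 1373 genes. The smallest p-values were those of ABCB10 (-0.10, SE 0.026, adjusted p = 0.493) and SLCO5A1, lower in treated lineages, and ABCC4 (0.064, SE 0.028, adjusted p = 0.520) and ABCG1, higher in treated lineages. Without R8 the ABCB10 difference passed (-0.14, adjusted p = 0.0220), and without the late R9 and R10 libraries it was 0.022 on the log2 scale, the opposite sign.

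These counts rest on the first time point and on single lineages. Without time point 1, 2 transporter genes passed in treated lineages, SLCO4A1 and ABCB8, and 0 in DMSO lineages, although all 16 treated slopes kept their sign. Leaving out 1 lineage in turn gave 12 to 18 treated calls. In DMSO lineages it gave 5 without R2, R6 or R7, whose slopes enter the shared estimate of spread, 12 without R8, and 0 without R9 or without R10. Over the 10 fits that each left out 1 lineage, the DMSO call was lost in 8 for ABCC5, 7 for SLC22A5, 6 for ABCB10 and 5 for SLC22A16, and the treated call in 7 for SLC22A13, 5 each for ABCA1 and ABCD3, and 3 for SLCO5A1. With libraries as units and the lineage as a replicate block, 15 transporter genes passed in DMSO lineages, in a fit that leaves out the spread of slopes between lineages. The shares of all genes called in these alternative fits are not given here, so their counts are not set against a background.

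**Figure D4:**
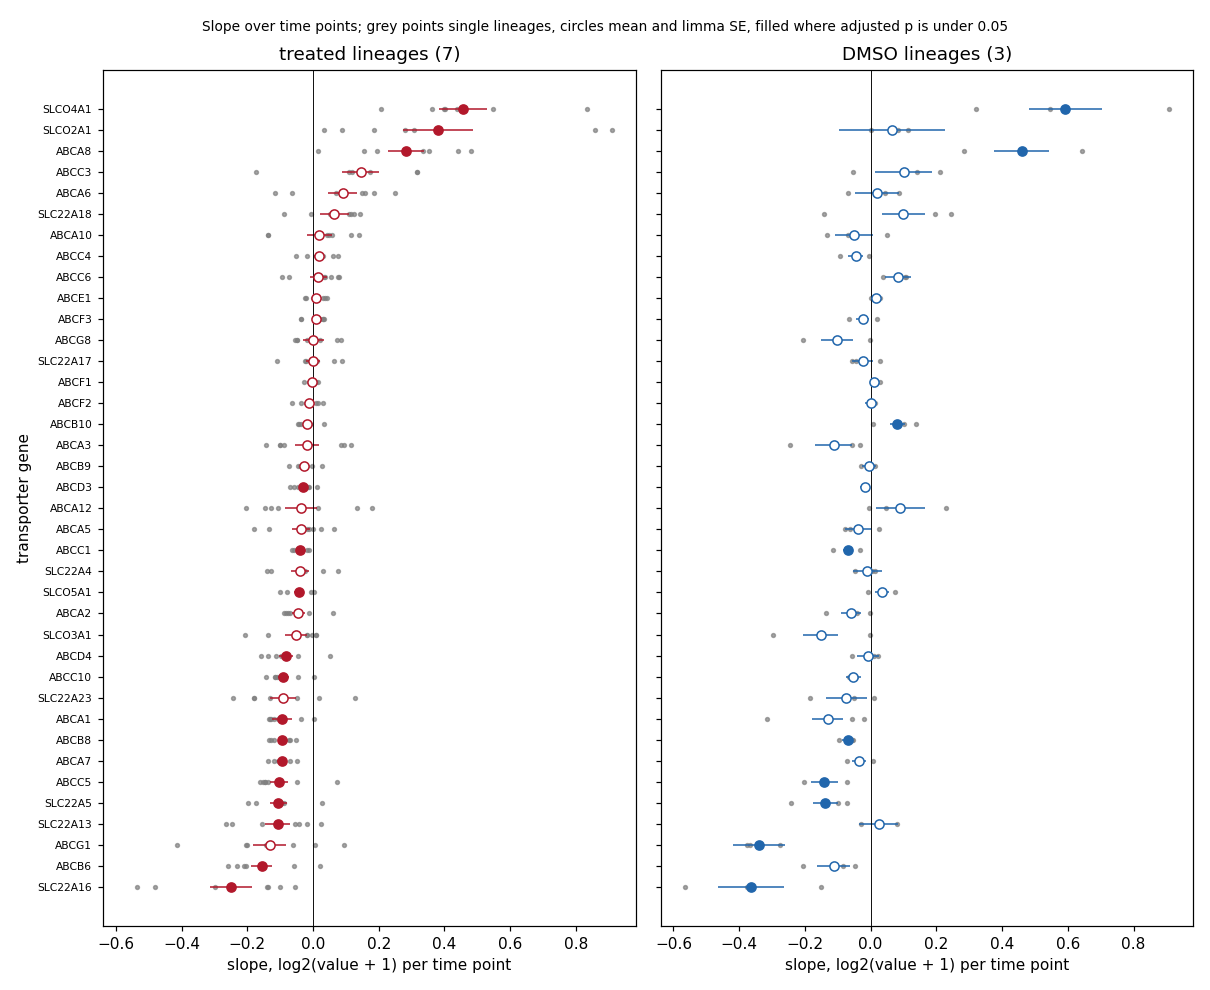
Slopes of 38 of the 41 tested transporter genes per time point in the 7 treated lineages (left) and the 3 DMSO lineages (right): grey points are single lineages, circles the mean with its limma SE, filled where the adjusted p is under 0.05. SLCO4A1 and ABCA8 lie far to the right on both sides and SLC22A16 far to the left on both, and SLCO2A1, tested only through 2 late libraries, to the right among treated lineages.

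Among the 4 tested SLCO genes, SLCO4A1 rose and SLCO5A1 fell in treated lineages, SLCO4A1 rose in DMSO lineages, and SLCO2A1 was high in 2 late treated libraries. SLCO4A1, a carrier of thyroid hormones and prostaglandins (chr20:62642445-62685785), had the steepest slope of the tested transporter genes in both arms, 0.46 (SE 0.073, adjusted p = 0.00157) in treated and 0.59 (SE 0.11, adjusted p = 0.0130) in DMSO lineages, and rose in every lineage. At time point 1 its lowest, median and highest values were 8.92, 10.4 and 17.6 in treated libraries (n = 6), and its values were 17.9, 11.6 and 10.5 in R8, R9 and R10. At time point 8 they were 79.9, 89.5 and 139 in treated libraries (n = 6) and 70.9, 670.4 and 76.5 in the DMSO lineages. The parental library had 5.23. The arms overlapped at both times, and R9 was the highest library at the later one. The antisense gene SLCO4A1-AS1 overlaps it, at a mean of 2.73.

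SLCO2A1, the prostaglandin transporter (chr3:133928145-134052184), was near the floor except in 2 treated libraries. It reached 615 in the late R1 library and 900.2 in the late R2 library. The other 47 treated libraries lay between 0.000696 and 4.19 with a median of 0.0256, and DMSO libraries between 3.93e-05 and 5.08 with a median of 0.0234 (n = 23). Without these 2 libraries its mean over all libraries was 0.618, so it passed the minimum only through them, and no test of it is read.

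SLCO5A1 lay between 9032 and 16338 with a median of 11906 in treated libraries and between 10066 and 21626 with a median of 12423 in DMSO libraries. Its slope was -0.044 (SE 0.014, adjusted p = 0.0272) in treated lineages and 0.035 (SE 0.021, adjusted p = 0.256) in DMSO lineages, and the difference of the slopes -0.079 (SE 0.025, adjusted p = 0.493). With libraries as units and the lineage as a replicate block that difference was -0.070 (adjusted p = 0.0411, limma). That fit takes repeated libraries of a lineage as replicates and leaves out the spread of slopes between lineages. Its p-value is therefore not read as a difference between the arms. SLCO5A1 overlaps no other protein-coding gene in the annotation. SLCO3A1, a carrier of thyroxine and prostaglandins, lay between 112 and 915 with a median of 625 in treated libraries and between 118 and 825 with a median of 589 in DMSO libraries, with slopes of -0.052 (SE 0.034, adjusted p = 0.240) and -0.15 (SE 0.052, adjusted p = 0.0723).

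Of the 8 tested SLC22 genes 3 fell in treated lineages (22.8% of all genes) and 2 in DMSO lineages (6.14%), and none rose in either arm. SLC22A16, a carnitine carrier that has also been described as taking up doxorubicin (chr6:110424687-110476641, promoter window printed above), had slopes of -0.25 (SE 0.065, adjusted p = 0.0125) in treated and -0.36 (SE 0.10, adjusted p = 0.0393) in DMSO lineages, falling in all 10. In both arms the values were high at the first time points and low at time point 4. At time point 1 the lowest, median and highest treated values were 53.5, 77.7 and 91.9 (n = 6), and the DMSO values 95.2, 110.1 and 121. At time point 4 the treated ones were 0.936, 3.56 and 42.1 (n = 7), R1 being the highest, and the DMSO values 3.12 and 3.85. At time point 7 they were 8.43, 32.4 and 50.8 (n = 5) in treated libraries and 32.8 in the only DMSO library. The parental library, at 1.89, resembled time point 4 rather than time point 1.

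SLC22A5, the high-affinity carnitine carrier OCTN2, fell in both arms, with slopes of -0.11 (SE 0.026, adjusted p = 0.00874) in treated and -0.14 (SE 0.039, adjusted p = 0.0433) in DMSO lineages, where it was -0.066 (adjusted p = 0.176) without the late R9 and R10 libraries. It had 449.8, 599 and 637 as lowest, median and highest treated values at time point 1 and 217, 288 and 462 at time point 8 (n = 6 each), and 646, 491 and 578 and then 329, 144 and 298 in R8, R9 and R10. SLC22A13, a urate and nicotinate carrier of low level (between 4.64 and 32.8 with a median of 14.1 in treated libraries), had slopes of -0.11 (SE 0.039, adjusted p = 0.0452) in treated and 0.024 (SE 0.059, adjusted p = 0.795) in DMSO lineages, and its treated call was lost without either the late R1 and R2 libraries (adjusted p = 0.158) or any 1 of R1, R2, R3, R4, R7, R8 and R10 (adjusted p between 0.0502 and 0.127). SLC22A4 (the ergothioneine carrier OCTN1), SLC22A17, SLC22A18 and SLC22A23 did not pass in either arm, with treated slopes from -0.092 (SLC22A23) to 0.065 (SLC22A18).

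The 6 tested drug efflux pumps of subfamily C included 3 that fell in treated lineages (22.8% of all genes) and 2 in DMSO lineages (6.14%). ABCC5, an exporter of cyclic nucleotides and nucleoside analogues, fell with slopes of -0.10 (SE 0.027, adjusted p = 0.0118) in treated and -0.14 (SE 0.041, adjusted p = 0.0450) in DMSO lineages. Its DMSO call was lost in 8 of the 10 fits without 1 lineage (adjusted p up to 0.318). Its lowest, median and highest treated values were 1177, 1835 and 1919 at time point 1 and 727, 814 and 1239 at time point 8, and its DMSO values 1678, 2111 and 2047 and then 737, 662 and 608. ABCC10 (MRP7, linked to vinca and taxane efflux) had slopes of -0.090 (SE 0.016, adjusted p = 0.00219) in treated and -0.053 (SE 0.024, adjusted p = 0.149) in DMSO lineages. ABCC3, ABCC4 and ABCC6 did not pass, with treated slopes of 0.14, 0.019 and 0.016. ABCC6 has the copies ABCC6P1 and ABCC6P2 (means 0.330 and 0.849), so its reads may be split among them.

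Of the 9 tested lipid transporters of subfamily A, ABCA8 rose (16.3% of all genes) and ABCA1 and ABCA7 fell (22.8%) in treated lineages. ABCA8, a plasma membrane lipid exporter (chr17:68867292-68955392), rose by 0.28 (SE 0.055, adjusted p = 0.00351) per time point in treated and 0.46 (SE 0.084, adjusted p = 0.0119) in DMSO lineages, in every lineage. Its lowest, median and highest treated values were 21.9, 32.1 and 230.2 at time point 1 and 113, 212 and 446 at time point 4, with R1 the highest at the first and the lowest at the second. The DMSO values were 51.9, 22.1 and 28.8 at time point 1 and 252 and 469 at time point 4, and the parental library had 293. ABCA1, which loads cholesterol onto apolipoprotein A-I, had a treated slope of -0.093 (SE 0.030, adjusted p = 0.0312), which missed the threshold without the late R1 and R2 libraries (adjusted p = 0.0543), and a DMSO slope of -0.13 (SE 0.046, adjusted p = 0.0794). ABCA7, linked to phagocytosis and Alzheimer disease, fell with a slope of -0.10 (SE 0.014, adjusted p = 0.00122) in treated lineages, in 7 of 7, and had a DMSO slope of -0.036 (SE 0.022, adjusted p = 0.266).

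Of the 5 mitochondrial and lysosomal half-transporters of subfamily B, 2 fell in treated lineages (22.8% of all genes). ABCB6, a porphyrin transporter, had -0.16 (SE 0.033, adjusted p = 0.00478) in treated and -0.11 (SE 0.050, adjusted p = 0.144) in DMSO lineages, and ABCB8, an inner mitochondrial membrane protein, -0.095 (SE 0.011, adjusted p = 0.000524) and -0.070 (SE 0.017, adjusted p = 0.0300). ABCB8 fell in all 10 lineages and was the transporter gene with the smallest treated p-value. ABCB10, which supports haem synthesis in mitochondria, had a treated slope of -0.017 (SE 0.015, adjusted p = 0.370) and rose in DMSO lineages by 0.081 (SE 0.022, adjusted p = 0.0387). Without the 4 late libraries of R9 and R10 its DMSO slope was -0.039 (adjusted p = 0.170), the opposite sign. The lysosomal peptide transporter ABCB9 did not pass in either arm.

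In subfamily D, which moves fatty acids and cobalamin in peroxisomes and lysosomes, ABCD4 (-0.083, SE 0.021, adjusted p = 0.0119) and ABCD3 (-0.030, SE 0.010, adjusted p = 0.0351) fell in treated lineages (22.8% of all genes), the second with adjusted p = 0.162 without the late R1 and R2 libraries. In DMSO lineages none of the 3 tested genes of the subfamily passed. There ABCD3 fell in 3 of 3 lineages and ABCD4 in 1 of 3. None of the 4 genes of translation (ABCE1, ABCF1, ABCF2 and ABCF3) passed in either arm, and their treated slopes lay between -0.012 (ABCF2) and 0.0090 (ABCE1). ABCG1, which moves cholesterol to HDL, fell in DMSO lineages with a slope of -0.34 (SE 0.078, adjusted p = 0.0248), and its treated slope was -0.13 (SE 0.051, adjusted p = 0.0595). At time point 1 it had 17.2, 23.0 and 40.8 as lowest, median and highest treated values, against 14.6 in R8, 111 in R9 and 128 in R10. R8 was thus below all treated libraries and R9 and R10 above them all. The difference of its slopes was 0.21 (SE 0.093, adjusted p = 0.521).

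Among the 12 transporter genes with a mean of 1 to under 10, the fit with a minimum mean of 1 called 4 more besides ABCB1 in treated lineages. That fit called 35.6% of 20174 genes there, 14.9% as rising and 20.8% as falling, so calls were common among all genes. The retinal lipid transporter ABCA4 (0.15, SE 0.041, adjusted p = 0.0144), ABCA9 (0.26, SE 0.082, adjusted p = 0.0296) and SLC22A31 (0.18, SE 0.044, adjusted p = 0.00963) rose, and SLC22A15, a carrier of zwitterions and carnitine derivatives, fell (-0.23, SE 0.047, adjusted p = 0.00423). The DMSO slopes of ABCA4 (0.16, SE 0.063, adjusted p = 0.115) and SLC22A31 (0.15, SE 0.068, adjusted p = 0.155) were similar to the treated ones. That of ABCA9 was -0.022 (SE 0.12, adjusted p = 0.923, limma). No slope difference between arms passed in that fit. SLC22A15 fell in DMSO lineages too (-0.26, SE 0.072, adjusted p = 0.0454), where 4.56% of all genes fell. It had 24.9 in the parental library and at most 25.4 in any library, so these are changes at a low level.

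Whether treated lineages differed from DMSO lineages over all time points was tested with 1 value per lineage, adjusted for time point. No transporter gene and none of the 14565 genes passed (0%, limma), while 2 transporter genes and 1965 of all genes were under 0.05 before adjustment. The lineages of the arms separated without overlap for 0 of 41 transporter genes, and for 3.01% of all genes. Among genes higher in treated lineages, the smallest p-value was that of SLC22A4 (0.33, SE 0.14, adjusted p = 0.348), and ABCD4 was lower in treated lineages by a difference of -0.10 (SE 0.049, adjusted p = 0.394). SLC22A4 overlaps P4HA2 and MIR3936HG on the other strand. Without R8, 3 transporter genes passed: ABCC1, given above, SLC22A18 (-0.70, adjusted p = 0.0384) and ABCG1 (-1.54, adjusted p = 0.0489), SLC22A18 and ABCG1 lower in treated lineages. The share of all genes called in that fit is not given here.

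At single time points, ABCB10 at time point 9 was the only transporter gene past the threshold, -0.96 (SE 0.26, adjusted p = 0.0485) in treated against DMSO libraries, where 1.33% of all genes passed, 0.542% as higher and 0.79% as lower. It had 867, 580.4 and 662 in R1, R4 and R5, against 721, 2101 and 1626 in R8, R9 and R10. The treated libraries overlapped R8 and lay below R9 and R10. Without the 4 late libraries of R9 and R10 the difference was -0.056 (adjusted p = 0.986). Without R8 it was -1.41 (adjusted p = 0.000170), and SLC22A18 (-1.56, adjusted p = 0.0239) and ABCD4 (-0.80, adjusted p = 0.0317) passed beside it. The DMSO side was then only R9 and R10, whose libraries of that time point stood apart from the rest of their arm. At time point 10 the SLC22A18 difference without R8 was -2.01, with R10 as the only DMSO library. The share of all genes called without R8 is not given here. The ABCB10 call was lost without any 1 of R1, R3, R4, R5, R6, R7, R9 or R10 (adjusted p between 0.0680 and 0.621). At time points 1, 4, 5, 6, 7, 8 and 10 no transporter gene passed, and at time point 10, 0.0618% of all genes did.

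The comparison after VDC with after EC in treated lineages asked whether the last drugs given left a mark on transporter RNA. It called 1 of 14565 genes (0.00687%) and no transporter gene, while 6 transporter genes and 2120 of all genes were under 0.05 before adjustment. Among genes higher after VDC, the smallest p-values were those of SLC22A16 (1.66, SE 0.48, adjusted p = 0.111) and ABCA3 (0.62, SE 0.22, adjusted p = 0.179), a transporter of surfactant lipids, and among genes lower after VDC those of ABCD3 (-0.14, SE 0.048, adjusted p = 0.160) and ABCC3 (-0.87, SE 0.36, adjusted p = 0.242), an exporter of conjugated organic anions. Without R5, SLC22A16 passed (2.31, adjusted p = 0.0205). Without a linear time term SLC22A16 (1.85, adjusted p = 0.0176), ABCC3 (-1.04, adjusted p = 0.0444) and ABCA8 (-1.01, adjusted p = 0.0447) passed. That fit cannot separate the course from change over time, and in treated lineages SLC22A16 fell and ABCA8 rose over time. These calls are therefore not read as course effects, and the share of all genes called in that fit is not given here. In DMSO lineages, grown on the same schedule without drugs, the corresponding effects were 0.42 for SLC22A16, -0.19 for ABCA3 and 0.20 for ABCC3. The time points matched only in part. The earliest EC time point was sequenced in DMSO lineages only, and the VDC time point after it in treated lineages only. All treated libraries before the first EC time point shared by the arms therefore count as VDC. The effects in the arms, and their difference, thus set partly unlike time points against each other. The difference of the course effect between arms called no gene (0%, limma), with unadjusted p under 0.05 for 1 transporter gene and 685 genes. The smallest p-values were those of ABCA3 (0.81, SE 0.40, adjusted p = 0.914), SLC22A16 (1.24, SE 0.82, adjusted p = 0.914), ABCC3 (-1.07, SE 0.62, adjusted p = 0.914) and ABCF2 (-0.20, SE 0.12, adjusted p = 0.914).

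ABCA3 and SLC22A16, whose promoter windows are printed above, were both high at the first time points and low at time point 4 in each arm. ABCA3 had 696, 1167 and 1273 as lowest, median and highest treated values at time point 1 (n = 6) and 223, 320.3 and 845 at time point 4 (n = 7), and 1027, 1198 and 1270.5 and then 353 and 285 in DMSO libraries. ABCC3 did the opposite, with treated values of 1.94, 3.05 and 7.75 at time point 1 and 3.23, 16.4 and 31.8 at time point 4, and DMSO values of 3.73, 3.44 and 1.10 and then 31.8 and 26.5. The arms thus lay on the same side at time point 4, and 1 DMSO library of time point 5, that of R10, was low in ABCA3 (146) and SLC22A16 (0.731) and high in ABCC3 (25.6) and ABCA8 (634).

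**Figure D5:**
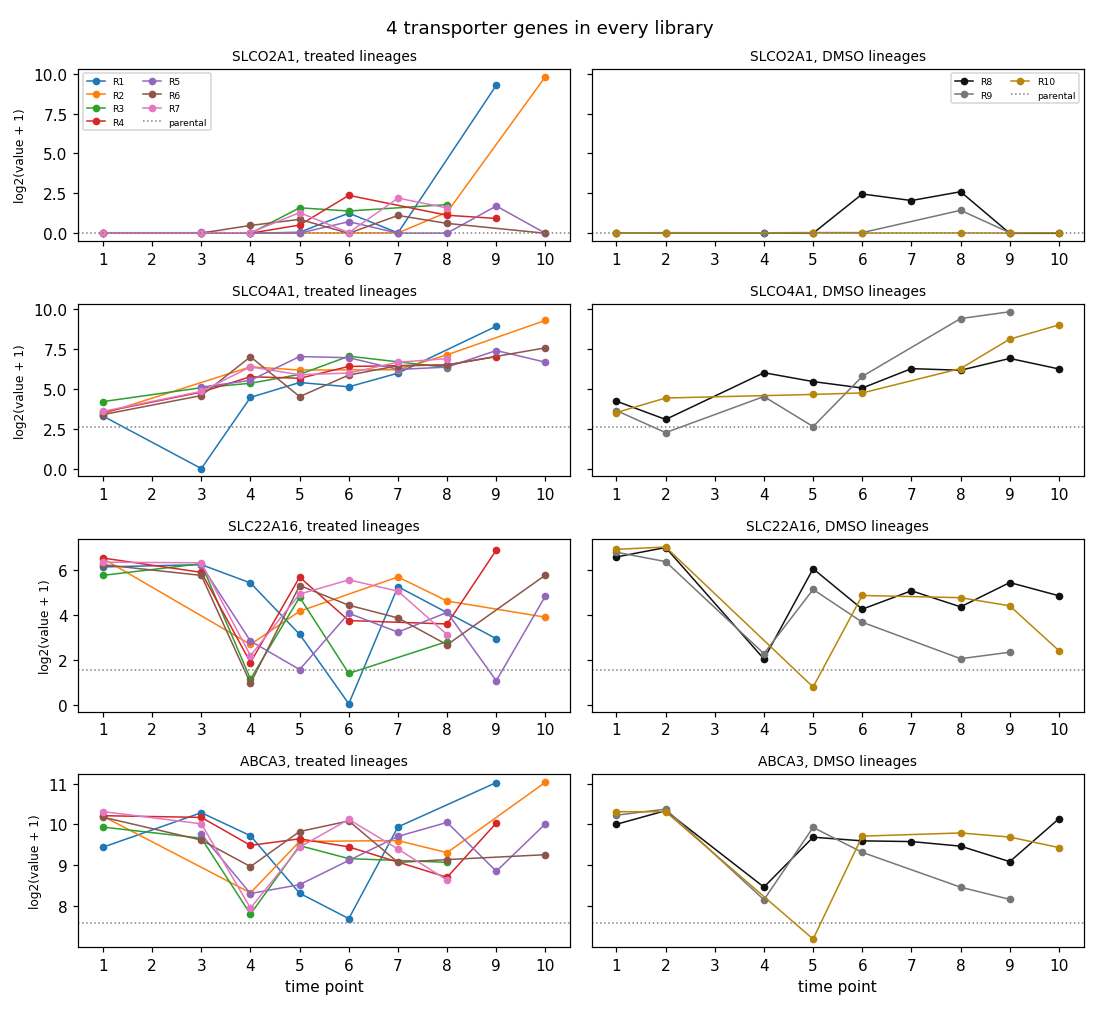
SLCO2A1, SLCO4A1, SLC22A16 and ABCA3 as log2(value + 1) by time point in treated lineages (left) and DMSO lineages (right), with 1 line per lineage and a dotted line at the parental library. SLCO2A1 leaves the floor widely only in the late R1 and R2 libraries, SLCO4A1 climbs in both arms, and SLC22A16 and ABCA3 drop at time point 4 in both.

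The late R1 and R2 libraries lay above all 47 other treated libraries for 4 of the 41 transporter genes (9.81% of all genes did) and below them all for 10 (12.5% of all genes). SLCO2A1, 1 of the 4, was among the 41 only through these 2 libraries (mean 0.618 without them). Its place in this count was thus fixed beforehand. The higher ones were SLCO2A1, SLCO4A1 (480.4 and 619, others at most 188), ABCA3 (2082 and 2094, others at most 1273) and SLC22A18, a carrier of the imprinted region of chromosome 11 (105 and 84.3, others at most 57.2). The lower ones included ABCA5, ABCB6, ABCC5, ABCC10, ABCD3, ABCF3, SLC22A23 and SLCO3A1. SLCO3A1 had 147 and 112, against 250.4 to 915 in the other treated libraries. In these 2 libraries the sum of 6 fibroblast and muscle markers was 37336 and 45446, against 5674 to 24109 in the other treated libraries. The collagens COL1A1 and COL3A1 were above all others there, DCN was below all others at 28.9 and 30.8, and MYOD1 was near the floor. The sum of 8 Ewing sarcoma markers was 32869.9 and 37658, against 49004 to 75638. CCND1 (18942 and 21176, others at least 31434), NR0B1 and STEAP1 were below all others, while FLI1, EWSR1, PRKCB, NKX2-2 and CD99 lay within their range. Their part in the transporter values was not tested.

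The late R9 and R10 libraries lay above all 19 other DMSO libraries for ABCB10 (1749, 2101, 1626 and 1544, others at most 1479), SLC22A18 (189, 170.5, 92.1 and 179, others at most 74.0) and SLCO4A1 (670.4, 900.0, 275 and 508, others at most 119), in the order R9 at time points 8 and 9 and R10 at time points 9 and 10. That is 3 of 41 transporter genes, against 4.37% of all genes. ABCC4, an exporter of cyclic nucleotides and prostaglandins, lay below all others (431, 288, 401 and 352, others at least 475), the only such gene of 41, against 2.2% of all genes. SLCO4A1 and SLC22A18 were thus in the high set of both arms, although the sets differ in other markers. The share of all genes in both high sets is not given here, so this overlap is not set against a background. The sum of 5 epithelial markers was 385 to 1399 in these 4 libraries, against 7.71 to 263 in the other DMSO libraries, through KRT8 and KRT18, while EPCAM and CDH1 reached at most 2.79 and 2.08. The fibroblast and muscle sum was 2885 to 5651, against 5081 to 15240.4. The Ewing sarcoma sum was 70291 to 79546, against 50234 to 75563. NKX2-2 and NR0B1 were above all other DMSO libraries, and the other Ewing sarcoma markers overlapped them. Their part in these values was not tested.

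Genes that work beside these transporters were counted on lists of their own, to be read against the 16.3% of all genes that rose and 22.8% that fell in treated lineages and the 6.11% and 6.14% in DMSO lineages. Of 3 ABC genes with other symbols, the peptide transporter subunits TAP1 (0.060, adjusted p = 0.00935) and TAP2 (0.070, adjusted p = 0.00485) rose and the chloride channel CFTR (-0.10, adjusted p = 0.0315) fell in treated lineages, by limma slopes per time point. TAP1 (0.091, adjusted p = 0.0285) and TAP2 (0.11, adjusted p = 0.0175) rose in DMSO lineages as well. Of 14 other drug, metal and nucleoside carriers 3 rose and 5 fell in treated lineages, where 39.1% of all genes passed, and 2 rose and 4 fell in DMSO lineages, where 12.3% did. They included the nucleoside carrier SLC29A2 (-0.10, adjusted p = 0.00715), the peptide carrier SLC15A2 (-0.12, adjusted p = 0.0372), the lactate carrier SLC16A3 (0.069, adjusted p = 0.0382) and the copper pump ATP7B (-0.068, adjusted p = 0.0180), all given for treated lineages. In DMSO lineages the largest were ATP7B (-0.14, adjusted p = 0.0196), SLC16A3 (0.14, adjusted p = 0.0364), the phospholipid flippase ATP8B1 (0.13, adjusted p = 0.0363) and the nucleoside carrier SLC29A3 (-0.085, adjusted p = 0.0227).

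Of 16 nuclear receptors and other regulators of transporters 4 rose and 4 fell in treated lineages (16.3% and 22.8% of all genes), and 1 rose and 1 fell in DMSO lineages (6.11% and 6.14%). SREBF1 (-0.10, adjusted p = 0.0197) and SREBF2 (-0.061, adjusted p = 0.00606), activators of lipid and sterol genes, and the nuclear receptor partner RXRA (-0.055, adjusted p = 0.00139) fell, and the xenobiotic receptor AHR (0.077, adjusted p = 0.0137) rose in treated lineages. In DMSO lineages the antioxidant regulator NFE2L2 (0.11, adjusted p = 0.00846) rose and FOXO3 (-0.10, adjusted p = 0.0209) fell. Of 10 sterol efflux partners 2 rose and 1 fell, SMPDL3A (0.10, adjusted p = 0.0227) and PLTP (0.054, adjusted p = 0.00577) being those that rose. Of 12 glutathione conjugation genes 2 rose and 1 fell, GSTO1 (0.049, adjusted p = 0.0351) and GSTP1 (0.036, adjusted p = 0.00706) rising and the glutathione synthetase GSS (-0.040, adjusted p = 0.00263) falling. In DMSO lineages 1 of the 10 sterol partners, SMPDL3A (0.30, adjusted p = 0.00789), rose and none of the 12 glutathione genes passed. Among 5 membrane anchors EZR (0.046, adjusted p = 0.0324) rose in treated and MSN (0.12, adjusted p = 0.0308) in DMSO lineages, and among 3 peroxisomal import partners PEX19 rose in both, by 0.029 (adjusted p = 0.0249) in treated and 0.047 (adjusted p = 0.0448) in DMSO lineages. The 1 tested pore partner of the potassium channel subunits did not pass. No gene of any of these lists passed in the comparisons of arms, of slopes between arms or of courses.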

How the data were processed

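Total RNA of 73 CHLA-9 libraries was sequenced. The deposited values are a signal, counts that the authors quantile-normalized, going by the name of the deposited table and by column totals that are equal within an arm. Reads were aligned with STAR, per the labels' protocols, and the submitters' processing notes name STAR, featureCounts and GRCh38 with no versions or roles. The method of normalization and the strand setting are not given in the sources used here. Treated columns each sum to 13583520 and DMSO and parental columns to 13582508, so the depth of a library is unknown and no intervals for counting are printed. There were 0 other columns in the table.

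Genes with a mean of at least 10 (14565 of 36233) were tested as log2(value + 1) with limma 3.58.1 in R 4.3.3, with Benjamini-Hochberg adjustment over all of them and a threshold of 0.05. The adjusted p-values printed are limma's. Arms were compared with 1 value per lineage, adjusted for time point, and slopes were fitted per lineage. Single time points were compared over libraries, and VDC minus EC within treated lineages was fitted with a lineage block and a linear time term. The scripts were tested on simulated data. Genes named are ABCB1, ABCC1 and ABCG2, all called transporter genes (10 at most per direction), or otherwise the smallest p-values, and the largest changes of each partner list. The transporter genes, their partner lists and the named-gene rule were chosen with earlier results of these data known. Coordinates come from GENCODE 29 (GRCh38) and promoter windows from RefSeq. Lineages are the same culture over time per the labels, and libraries of the same lineage deviated together with a mean correlation of 0.0814 over 219 pairs, against -0.0152 over 1050 pairs of different lineages. Alternatives were another pseudocount, filter, scaling, lineage block and subsets of libraries. A few genes that enter the counts are not reported here by name, nor drawn.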

Additional observations from a re-analysis of the deposited data

Results flagged for a closer look

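A gap test (Dixon) was run on 52 groups of at most 7 values. These were treated libraries of 1 time point, or slopes or time-adjusted levels of the treated lineages. In 7 groups a value lay far from the others. Chance gives about 1 in 20 for normal values, but ABCB1 at time point 1 and SLCO2A1 at time point 4 otherwise lay near the floor. The 7 groups are therefore not read as an excess over chance. Among treated lineages, the time-adjusted ABCC1 level of R1 was the lowest at 11.23 on the log2 scale, with the next at 11.43. ABCC1 at time point 1 was 2086 in R1, against at least 3156 in the other treated libraries. ABCB1 had 1.09 in R6 at time point 1, against at most 0.0256 in the others, and 6.23 in R5 at time point 7, against at most 0.439. SLCO2A1 had 0.408 in R6 at time point 4, against at most 0.0300 in the others. SLCO4A1 had 17.6 in R3 at time point 1, with the next at 11.1, and 0.0271 in R1 at time point 3, against at least 23.1.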

How the results depend on the processing

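Leaving out 1 lineage in turn gave 0 to 3 called transporter genes for the arms, 12 to 18 for treated slopes, 0 to 12 for DMSO slopes, 0 to 1 for the slope difference, 0 to 1 for VDC minus EC, 0 to 0 for its difference between arms and 0 to 3 for single time points. The count for single time points was 0 with a minimum mean of 1, with no filter, without the 4 late DMSO libraries and without the late R1 and R2 libraries. DMSO slopes gave 0 with no filter and 0 without time point 1, and treated slopes 2 without time point 1. With libraries as units and a lineage replicate block, DMSO slopes gave 15 calls and the slope difference 1, but lineages, not libraries, are the independent cultures. Without a time term VDC minus EC gave 3. The shares of all genes called in these fits are not given here, so the counts are not set against a background. Signs turned without the 4 late DMSO libraries for the arm difference of ABCD4 (0.0431), the DMSO slope of ABCB10 (-0.0395) and the slope differences of ABCC4 (-0.0227) and ABCB10 (0.0225 on the log2 scale). The VDC minus EC value of ABCC1 lay between -0.0198 (without R6) and 0.0275 (without R1) with 1 lineage left out, was -0.00508 without R7, and turned to -0.000674 without the late R1 and R2 libraries and -0.00884 with no replicate block. The cause was not tested. Scaling all columns to 1 target changed none of 49 named results. The columns already had equal totals within an arm and nearly equal ones between arms, so this could hardly move a result. Depth is unknown, so the counting error of values near the floor is unknown.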
